A study of Homo sapiens with 6 samples.

Results

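The tetraspanin genes were compared between 2 RUNX1 genotypes of K562, a long-established cell line from a human leukaemia that carries erythroid and megakaryocytic traits. They were taken as the protein-coding genes named TSPAN plus a number, together with CD9, CD37, CD53, CD63, CD81, CD82, CD151, ROM1, PRPH2, UPK1A and UPK1B, which gave 33 of the 60131 genes in the RPKM table (19902 of them protein-coding). All 33 were also among the 28395 Entrez genes of the normalized count table. One group was K562 with RUNX1 R320*, in which a stop codon cuts short the C-terminus of this transcription factor, and the other was K562 with wild-type RUNX1 (WT), with 3 RNA-seq libraries each. Both genotypes were kept in the same serum-containing medium, and the labels name no treatment. No source used here gives how the stop codon was introduced, on how many alleles, or whether the R320* cells are 1 clone. The labels also do not say that libraries of a genotype came from separate cultures, so the p-values rest on the spread among these libraries, which may be technical.

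Tetraspanins are small proteins that cross the membrane 4 times and carry a large extracellular loop with a conserved cysteine motif. They bind each other and partner proteins such as integrins, immunoglobulin-type receptors and the protease ADAM10, and so gather them into membrane microdomains. In the megakaryocytic and erythroid lineages they are known from platelet membranes, from granules and from the extracellular vesicles that these cells release.

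The libraries held between 30064538 and 31306435 assigned reads in R320* and between 29058471 and 30595857 in WT. RUNX1 itself had 5209, 5026 and 5261 normalized counts in R320* and 2969, 2922 and 2908 in WT, which does not test the labels, since a stop codon need not lower a transcript. Erythroid and megakaryocytic markers were present, among which HBG1, TAL1, KLF1 and TFRC were called higher in R320*, and HBE1, GATA1 and ITGA2B lower. Lists of 3 markers each stood for other cell types. T cell markers summed to 427 to 517 in R320* and 733 to 758 in WT, nearly all from CD3D with CD2 at 0. Monocyte markers summed to 11.8 to 17.9 in R320* and 54.4 to 69.8 in WT, and the members differed. LYZ averaged 0.327 in R320* and 48.0 in WT, and the libraries of CD14 overlapped (8.46 and 11.2 on average). CSF1R went the other way, with 6.17 in R320* and 1.35 in WT. Endothelial markers summed to 44.1 to 57.2 in R320* and 45.0 to 54.8 in WT, with CDH5 and KDR at 0. Fibroblast markers summed to 2685 to 2918 in R320* and 3417 to 3514 in WT, nearly all from COL1A2. COL1A1 of the same list was called the other way, with 101 in R320* and 64.7 in WT (log2 fold change 0.61, limma adjusted p = 0.0313). Epithelial markers summed to 11052 to 11295 in R320* and 4221 to 4284 in WT, from EPCAM and KRT19, with CDH1 below 10 in every library. The part of these lists in the results was not tested.

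Sequence upstream of the start is shown for 4 genes whose transcripts differed, so that it can be read beside their values: CD63, TSPAN13 and TSPAN31, which were lower in R320*, and TSPAN4, which was higher. Each line is the 250 bases before a RefSeq gene start (GRCh38.p14), written 5′ to 3′ on the gene's strand. Where a gene had several starts, the one nearest the centre of the authors' 4000-base window for that gene was used. The only start of TSPAN31 lay 7026 bases from that centre, outside the authors' window. Capitals mark matches to the RUNX core hexamers TGTGGT or TGCGGT on either strand.
CD63, chr12:55729674-55729923, minus strand: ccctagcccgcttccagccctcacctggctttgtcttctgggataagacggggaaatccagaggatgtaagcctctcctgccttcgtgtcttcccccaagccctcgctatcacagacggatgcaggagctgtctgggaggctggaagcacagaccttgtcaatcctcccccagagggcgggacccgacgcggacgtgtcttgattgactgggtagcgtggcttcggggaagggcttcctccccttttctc
TSPAN13, chr7:16753505-16753754, plus strand: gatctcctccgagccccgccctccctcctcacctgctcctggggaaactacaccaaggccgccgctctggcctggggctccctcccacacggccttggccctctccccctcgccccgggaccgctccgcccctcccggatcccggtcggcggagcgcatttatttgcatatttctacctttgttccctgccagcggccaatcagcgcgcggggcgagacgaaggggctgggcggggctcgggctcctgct
TSPAN31, chr12:57744789-57745038, plus strand: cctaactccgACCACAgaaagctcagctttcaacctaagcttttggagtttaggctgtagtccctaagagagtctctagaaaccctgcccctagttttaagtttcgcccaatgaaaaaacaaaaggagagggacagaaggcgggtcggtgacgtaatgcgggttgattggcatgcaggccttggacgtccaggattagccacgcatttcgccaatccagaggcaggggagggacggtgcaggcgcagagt
TSPAN4, chr11:842602-842851, plus strand: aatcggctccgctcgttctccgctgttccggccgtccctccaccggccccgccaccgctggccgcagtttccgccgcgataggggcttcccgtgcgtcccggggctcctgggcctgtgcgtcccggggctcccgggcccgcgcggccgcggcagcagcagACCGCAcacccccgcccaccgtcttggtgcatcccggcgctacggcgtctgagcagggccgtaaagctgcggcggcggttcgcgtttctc
The match of TSPAN31 began 240 bases upstream of the start and that of TSPAN4 began 90 bases upstream, while the windows of CD63 and TSPAN13 held no match. TSPAN14, not called below, also had a match, 210 bases upstream. The windows of CD9, TSPAN5 and TSPAN15, which were called below and are not shown, held no match. No window was available for TSPAN32, CD81, TSPAN3 and TSPAN18, which were also called below, so they were not searched. Of 25 tetraspanin genes with a RefSeq window 3 held a match, against 5727 of all 35116 windows (16.3%). The GATA core hexamer AGATAA was found in 2 of 25 (PRPH2 and TSPAN12) and in 3219 of all windows (9.17%). A match is a description of these letters and not a binding site.

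Per length of transcript, 3 genes made up most of the family in both genotypes. CD63, a tetraspanin of late endosomes, granules and vesicles, had 169 ± 9.80 RPKM in R320* and 387 ± 4.23 RPKM in WT (SD, n = 3 each, as for all values with ± below). In RNA from a whole culture, fewer cells expressing a gene and less RNA per cell cannot be told apart. CD81, a partner of many immunoglobulin-type receptors, had 151 ± 5.80 RPKM in R320* and 127 ± 1.87 in WT, and CD151, which binds laminin-receptor integrins, had 128 ± 2.30 RPKM in R320* and 135 ± 13.2 in WT. In WT the libraries of CD151 and CD81 overlapped and those of CD63 stood above both, while in R320* CD63 and CD81 stood closer together, with all CD81 libraries above all CD151 libraries. These 3 genes held 64.4 ± 0.416% of the summed tetraspanin RPKM in R320* and 67.8 ± 0.541% in WT.

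The next genes in the order of RPKM changed places between the genotypes. TSPAN3 had rank 4 in R320* (64.1 ± 4.63 RPKM) and rank 6 in WT (43.6 ± 1.23 RPKM), whereas TSPAN13 had rank 7 in R320* (28.6 ± 1.18 RPKM) and rank 4 in WT (90.9 ± 1.37 RPKM). TSPAN32 had rank 25 in R320* (0.224 ± 0.188 RPKM) and rank 9 in WT (17.3 ± 0.963 RPKM). TSPAN14 had 31.1 ± 1.35 RPKM in R320* and 31.1 ± 1.02 in WT, and TSPAN17 had 43.0 to 45.1 RPKM in R320* and 45.3 to 45.4 in WT. These abundant genes thus lay close together in the genotypes, although the TSPAN17 libraries did not overlap. CD82 averaged 7.19 ± 1.27 RPKM in R320* and 5.65 ± 0.539 in WT, and the genes ranked below it in both genotypes averaged under 5 RPKM.

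**Figure D1:**
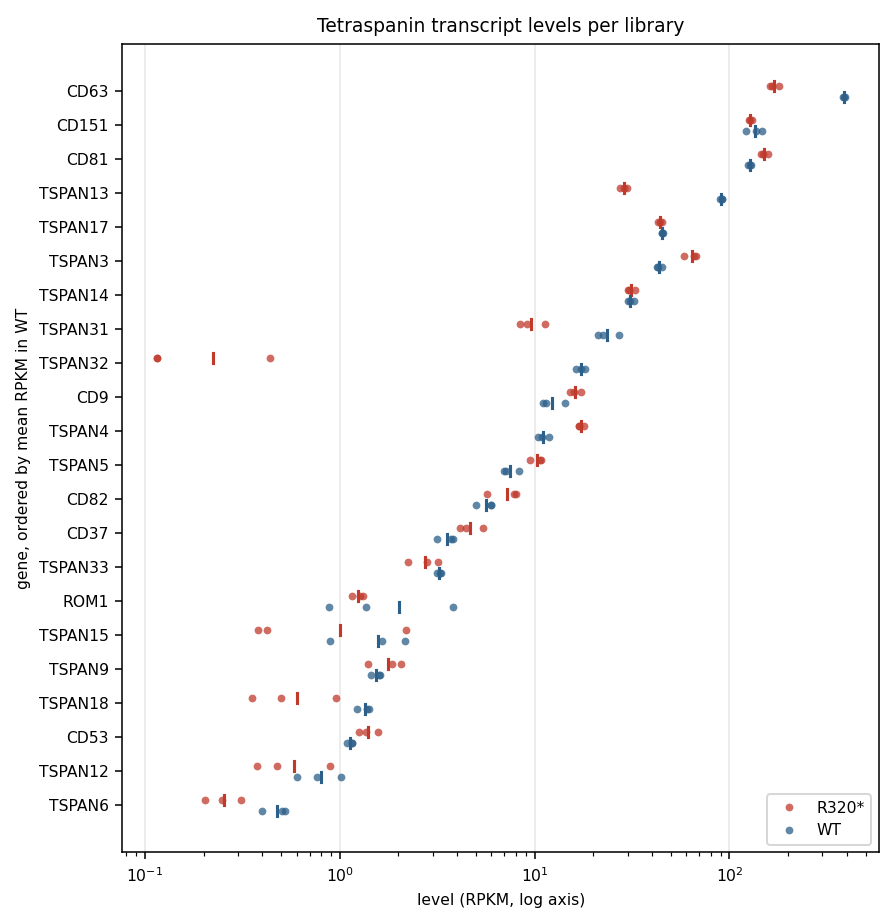
Level of each of the 22 tetraspanin genes tested in the normalized counts, in RPKM on a log axis, with 1 point per library, a vertical bar for the mean of 3 libraries, R320* in red above WT in blue, and genes ordered by their mean in WT. CD63, TSPAN13, TSPAN31 and TSPAN32 in R320* lie to the left of WT, and TSPAN32 is separated most widely (0.224 against 17.3 RPKM on average).

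The summed RPKM of the 33 genes was lower in R320*, with 693, 684.4 and 708.3 RPKM against 972.1, 960.6 and 937.9 RPKM in WT, and the 3 R320* libraries did not overlap the 3 WT libraries. CD63 alone held 24.4 ± 0.983% of that sum in R320* and 40.4 ± 0.554% in WT. Without CD63 the sums were 527, 522.7 and 527.9 RPKM in R320* and 585.3, 569.6 and 555.4 RPKM in WT, again without overlap but closer. The RPKM of all genes summed to between 721735 and 764073 in R320* and between 764578 and 786389 in WT, and the family held 0.0944 ± 0.00372% of that total in R320* and 0.123 ± 0.00278% in WT.

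**Figure D2:**
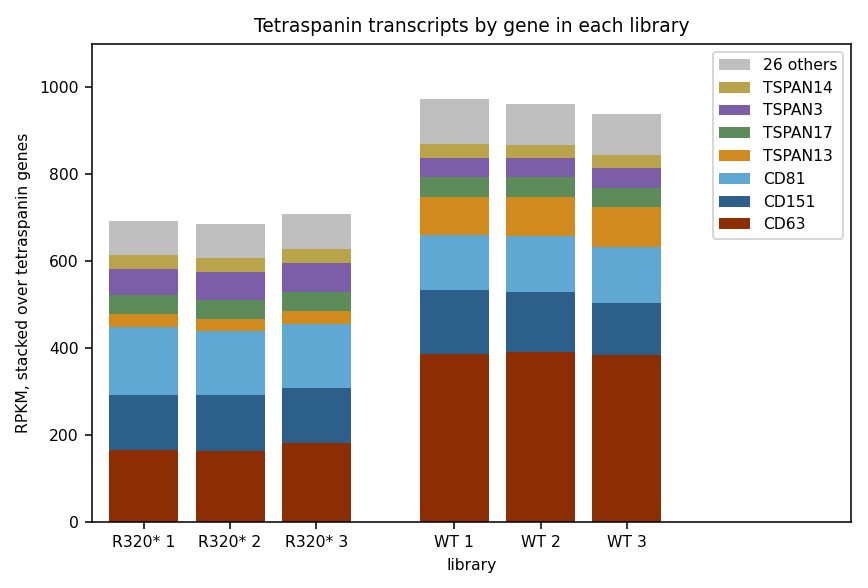
Stacked RPKM of the tetraspanin genes in each library, with the 7 genes of highest mean in WT in colour and the 26 others in grey. Bars reach 684.4 to 708.3 RPKM in R320* and 937.9 to 972.1 RPKM in WT, and the CD63 segment is shorter in all R320* libraries.

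Differences between the genotypes were tested on log2(normalized count + 1) with limma, over every gene that reached 10 normalized counts in 3 or more libraries, and called at a Benjamini-Hochberg adjusted p below 0.05. Log2 fold changes are R320* minus WT. Of the 33 tetraspanin genes 22 passed the filter, and 11 of them were called, 5 higher and 6 lower in R320*. Over all genes tested 53.7% were called, 26.4% higher and 27.4% lower, so the share among tetraspanin genes was near that of all genes. The libraries of the genotypes did not overlap for the same number, 11 of 22, against 59.8% of all genes. The median log2 fold change of the 22 was -0.01, beside 0.01 for all genes, and their median absolute log2 fold change was 0.36, beside 0.27. A called change of 1 or more on the log2 scale was seen in 6 of the 22, against 11.4% of all genes in either direction. All 6 were lower in R320*, but the share of all genes lower by that much was not computed.

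In the RPKM table, 23 tetraspanin genes reached 0.5 RPKM in 3 or more libraries, and 9 of them (39.1%) were called by limma on log2(RPKM + 0.1), 5 higher and 4 lower. Over all genes tested there 31.9% were called, 15.1% higher and 16.8% lower. The libraries did not overlap in RPKM for 13 of the 23, CD37, CD53 and TSPAN17 among them without a call, against 47.0% of all genes. The 9 were all called in the counts, in the same direction. TSPAN32, among these 9, passed the RPKM filter through the WT libraries alone, so it had to differ there. The 2 genes called in the counts alone were TSPAN15 and TSPAN18. The sign was the same for 19 of 21 genes tested in both, and the exceptions were CD53 and TSPAN12, neither of them called. Both tables come from the same libraries, so they are not independent.

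**Figure D3:**
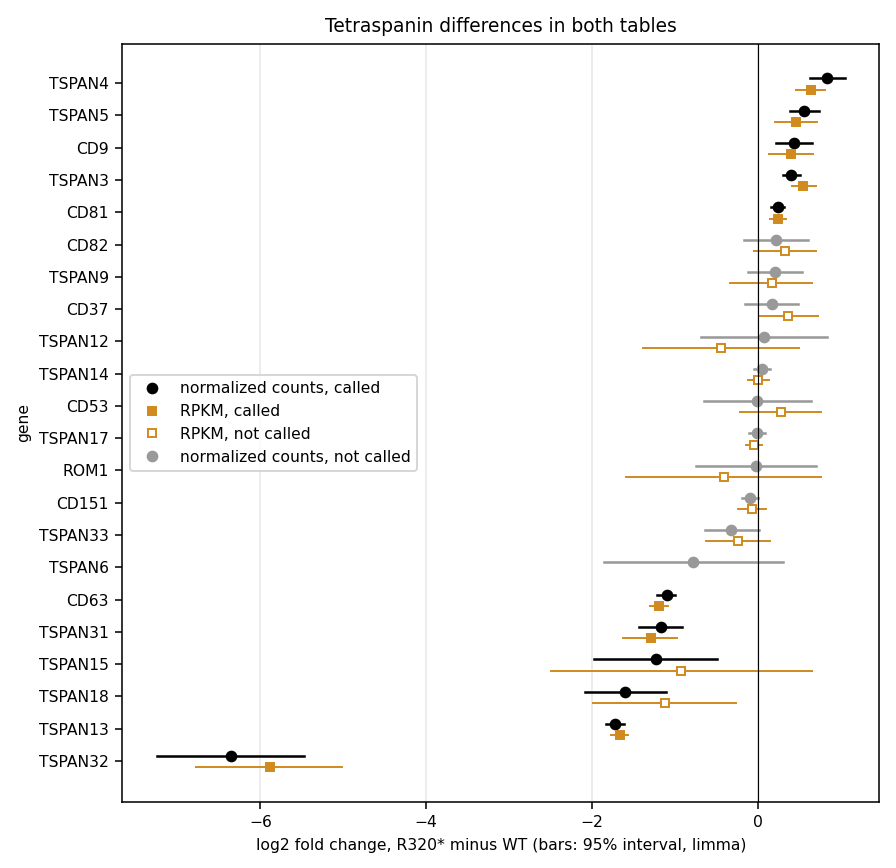
Log2 fold change (R320* minus WT) of 22 tetraspanin genes, with 95% limma intervals, from normalized counts (circles, black where called and grey where not) and from RPKM (orange squares, filled where called). TSPAN32 lies at -6.36 in counts and -5.89 in RPKM, apart from the other called genes, which lie between -1.72 and 0.84 in counts.

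Among tetraspanins of vesicles and of the CD9 type, CD63 was lower in R320* and CD81 and CD9 were higher. CD63 had 3796, 4128 and 4479 normalized counts in R320*, against 8891, 8848 and 8823 in WT. Every R320* library was below every WT library. It fell 2.14-fold (log2 fold change -1.10, SE 0.05, limma adjusted p = 1.50e-11), and by -1.19 in RPKM.

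CD81 had 5497, 5219 and 5498 normalized counts in R320* and 4441, 4634 and 4654 in WT. The groups did not overlap but the difference was small, 1.18-fold (log2 fold change 0.24, SE 0.04, limma adjusted p = 8.20e-05). CD9, a tetraspanin abundant on platelets and their precursors, had 408.9, 446.5 and 468.8 in R320* and 307.5, 345.0 and 324.6 in WT, a 1.36-fold rise with no overlap (log2 fold change 0.44, SE 0.10, limma adjusted p = 0.00175). In RPKM the call of CD9 (log2 fold change 0.40, limma adjusted p = 0.0341) was lost on leaving out R320* replicate 1, 2 or 3 (limma adjusted p = 0.0537, 0.103 and 0.0765), WT replicate 1 (0.0967) or WT replicate 3 (0.0995), and with no filter on low values (0.0579). TSPAN2, the closest relative of CD9 and CD81, had no read in any library, which allows up to 3 reads in each.

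Of the 4 tetraspanins typical of leukocytes, TSPAN32 fell in R320* and 3 were not called. TSPAN32 (also known as TSSC6 or PHEMX, chromosome 11, 2302013 to 2318204, GRCh38) is restricted largely to blood cells, and in mice its product takes part in signalling by the platelet fibrinogen receptor. It had 25.5, 3.97 and 21.9 normalized counts in R320*, against 1251, 1142 and 1174 in WT. The integrin chain ITGA2B of that receptor averaged 428 ± 58.6 in R320* and 1343 ± 15.6 in WT (log2 fold change -1.66, limma adjusted p = 1.73e-10). For TSPAN32 all 3 R320* libraries were near the lower end of the measurable range, with R320* replicate 2 lowest. The ratio of means was 69.4-fold lower in R320* (log2 fold change -6.36, 95% interval -7.25 to -5.47, SE 0.42, limma adjusted p = 1.95e-09). Without R320* replicate 2 the log2 fold change was -5.59. In RPKM it had 0.115, 0.115 and 0.441 in R320* and 18.2, 16.3 and 17.4 in WT (log2 fold change -5.89, limma adjusted p = 8.30e-05). It passed the RPKM filter through the WT libraries alone, so it had to differ there. The fitted change in RPKM was -3.91 with 1 RPKM added and -6.49 with 0.01 added.

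CD37 and CD53, both of mature leukocytes, were low and did not pass the test. CD37 had 204.9, 172.7 and 236.3 normalized counts in R320* and 184.1, 167.5 and 190.1 in WT (log2 fold change 0.17, 95% interval -0.15 to 0.49, limma adjusted p = 0.362). CD53 had 32.4, 34.7 and 32.4 in R320* and 28.2, 37.9 and 34.4 in WT (95% interval -0.65 to 0.64). CD82, described as a suppressor of metastasis, had 141.2, 146.9 and 161.0 in R320* and 103.6, 123.6 and 163.8 in WT (log2 fold change 0.22, 95% interval -0.17 to 0.61, limma adjusted p = 0.331). In counts the libraries of the genotypes overlapped for all 3, and for CD53 and CD82 the intervals include changes of over 1.5-fold. In RPKM CD82 was called only without R320* replicate 2 (log2 fold change 0.49, limma adjusted p = 0.0360).

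The TspanC8 tetraspanins bind ADAM10, a protease that cleaves Notch and other surface proteins, and escort it to the cell surface. Of 6 members 5 were tested, with 1 higher, 1 lower and 3 not called. TSPAN5 had 1036, 902.0 and 1010.1 normalized counts in R320*, against 598.3, 672.0 and 725.0 in WT, without overlap. The rise was 1.48-fold (log2 fold change 0.56, SE 0.08, limma adjusted p = 2.54e-05). In RPKM its call (limma adjusted p = 0.0154) was lost without R320* replicate 3 (0.0519), WT replicate 1 (0.0506) or WT replicate 2 (0.0516).

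TSPAN15 had 21.6, 20.8 and 55.3 normalized counts in R320*, against 85.8, 56.8 and 70.8 in WT. Its R320* replicate 3 lay just under the lowest WT library. The fall was 2.18-fold (log2 fold change -1.23, SE 0.35, limma adjusted p = 0.00733), but the call was lost without limma's intensity trend (0.0580) and was not made in RPKM (log2 fold change -0.93, limma adjusted p = 0.336). There R320* replicate 3 had 2.19 RPKM, above all WT libraries, and without it the RPKM change was -1.65 (limma adjusted p = 0.0375).

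The most abundant TspanC8 genes stayed close. TSPAN17 had 2884, 2954 and 3205 normalized counts in R320* and 3052, 3061 and 3001 in WT, and TSPAN14 had 2877, 2925 and 2995 in R320* and 2753, 2930.2 and 2806 in WT. Their 95% intervals, -0.11 to 0.09 and -0.04 to 0.15, reach no further than log2 changes of 0.15 in either direction. TSPAN33, which in mice is needed for normal red cell formation, had 239.2, 190.5 and 159.1 in R320* and 248.9, 246.3 and 229.5 in WT (log2 fold change -0.32, 95% interval -0.64 to 0.01, limma adjusted p = 0.0912). It was called without R320* replicate 1 (log2 fold change -0.47, limma adjusted p = 0.0157), the R320* library that overlapped WT. ADAM10 itself had 2546 ± 186 in R320* and 2719.7 ± 138 in WT (log2 fold change -0.10, 95% interval -0.22 to 0.02, limma adjusted p = 0.163).

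Among CD151 and the genes grouped with it, TSPAN4 rose and the 2 others tested were not called. TSPAN4, a component of the migrasomes that moving cells leave behind, had 636.3, 688.6 and 811.9 normalized counts in R320*, against 371.3, 399.8 and 417.6 in WT, without overlap. It rose 1.80-fold (log2 fold change 0.84, SE 0.10, limma adjusted p = 2.17e-06) and by 0.64 in RPKM, the largest rise among the tetraspanin genes called in counts. CD151 had 4450.3, 4458 and 4824 in R320* and 5089, 4672 and 4893 in WT (log2 fold change -0.09, 95% interval -0.19 to 0.00, limma adjusted p = 0.0904). It was called lower without R320* replicate 3 (-0.13, limma adjusted p = 0.0207), without WT replicate 2 (-0.13, 0.0491) and under quantile normalization (-0.11, 0.0494). TSPAN9, a platelet tetraspanin, averaged 195 ± 27.8 in R320* and 168 ± 12.7 in WT (95% interval -0.12 to 0.53, limma adjusted p = 0.270), and TSPAN11 had no read in the count table.

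Of the 11 remaining TSPAN genes 6 were tested, and TSPAN3 rose while TSPAN13, TSPAN18 and TSPAN31 fell. TSPAN13, reported to bind neuronal calcium channels, had 1146, 1052 and 1096 normalized counts in R320*, against 3611, 3562 and 3683 in WT. The libraries of each genotype lay close together and the groups were far apart, with a 3.30-fold fall (log2 fold change -1.72, SE 0.05, limma adjusted p = 8.14e-14). It was the smallest adjusted p among the tetraspanin genes, and the change in RPKM was -1.66 (limma adjusted p = 3.41e-06).

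TSPAN31, first found amplified in sarcoma beside CDK4, had 189.2, 260.0 and 245.9 normalized counts in R320*, against 525.1, 524.4 and 502.6 in WT. It fell 2.23-fold without overlap (log2 fold change -1.17, SE 0.12, limma adjusted p = 5.49e-07). TSPAN18, which regulates the calcium channel ORAI1 in endothelial cells, had 42.2, 37.7 and 32.4 in R320*, against 102.5, 122.6 and 119.3 in WT, a 3.07-fold fall without overlap (log2 fold change -1.60, SE 0.23, limma adjusted p = 1.89e-05). In RPKM TSPAN18 was below 1.5 in every library and not called (log2 fold change -1.12, limma adjusted p = 0.0556), except without R320* replicate 2 (-1.46, limma adjusted p = 0.0208) and with 1 RPKM added (-0.56, limma adjusted p = 0.0409).

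TSPAN3 had 2199, 2238 and 2276 normalized counts in R320*, against 1690.3, 1642 and 1744 in WT. It rose 1.32-fold without overlap (log2 fold change 0.40, SE 0.05, limma adjusted p = 2.87e-06). TSPAN12, a coreceptor for norrin signalling through Frizzled-4, had 39.1 ± 17.6 in R320* and 35.8 ± 9.98 in WT (95% interval -0.68 to 0.83), and TSPAN6 had 10.0 ± 5.46 in R320* and 17.1 ± 6.09 in WT (95% interval -1.85 to 0.30). Neither was called, and at these counts changes within the intervals were not detectable.

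The retinal and urothelial tetraspanins were at or near the floor. In the normalized counts ROM1, a photoreceptor disc protein, was the only one tested. ROM1 had 59.8, 52.6 and 34.3 normalized counts in R320* and 63.8, 27.9 and 62.7 in WT (95% interval -0.74 to 0.70). PRPH2 had 0 in every R320* library and at most 5.23 in WT, and UPK1A had 0 in every R320* library and at most 5.98 in WT. The 7 other genes that were not tested beside these 2 and the 2 described next were TSPAN1 (at most 18.1 in R320* and 8.09 in WT), TSPAN7 (7.94 to 11.4 in R320* and 2.02 to 6.28 in WT), TSPAN16 (at most 3.92 in R320* and 5.23 in WT), TSPAN8 (3.92 in 1 R320* library and 0 elsewhere) and, with no read in the count table, TSPAN2, TSPAN11 and TSPAN19.

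The tables differed for 2 low genes. UPK1B had 0.800 ± 0.0811 RPKM in R320* and 0.774 ± 0.220 in WT, but 1.96 normalized counts in R320* replicate 1 and none in the other 5 libraries. TSPAN10, a TspanC8 member, had 3.19 ± 0.201 RPKM in R320* and 3.11 ± 0.516 in WT, but 6.79 ± 5.43 normalized counts in R320* and 5.42 ± 0.492 in WT. Neither was called in RPKM (limma adjusted p = 0.890 and 0.869). The gene annotation behind each table and its part in this difference were not tested.

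Position on the chromosome was set beside the changes by taking, for each gene, the median log2 fold change of the nearest tested genes, 25 on each side where the chromosome held them. CD63 and TSPAN31, both on the long arm of chromosome 12, lay among genes that were lower in R320* as a whole. Around CD63 the median was -0.71, with 40 of 50 neighbours called lower and 2 higher, and around TSPAN31 it was -0.74, with 44 of 50 lower and 0 higher. CD63 itself lay 0.39 and TSPAN31 0.42 below the neighbour medians, on the log2 scale. The part of the neighbourhood in their falls was not tested. The untested TSPAN8 and TSPAN19 have neighbour medians of -0.64 and -0.60. On the short arm CD9 and TSPAN9 have medians of 0.02, and the untested TSPAN11 has -0.18 (20 of 50 lower, 6 higher).

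For the other called genes the neighbour medians were nearer to 0. The neighbour median was -0.15 for TSPAN13, 0.11 for TSPAN18, 0.05 for TSPAN15 and 0.19 for TSPAN32, against their own log2 fold changes of -1.72, -1.60, -1.23 and -6.36. It was 0.19 for TSPAN4, 0.12 for TSPAN3, -0.02 for TSPAN5 and 0.19 for CD81, the last close to the 0.24 of CD81 itself. TSPAN17, not called, lay in a stretch of chromosome 5 with a median of -0.25 (35 of 50 lower, 4 higher) and had a log2 fold change of -0.01.

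**Figure D4:**
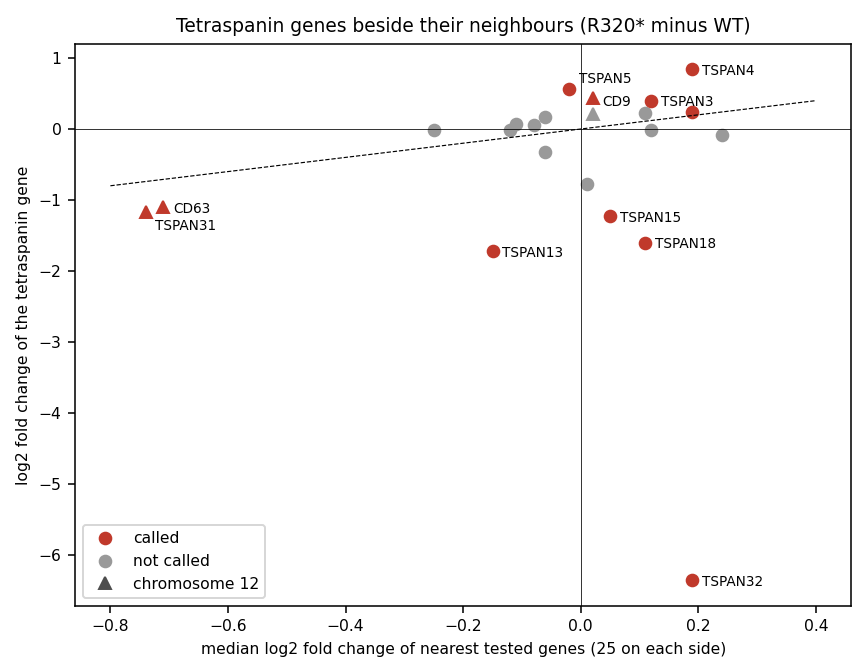
Log2 fold change of each of the 22 tetraspanin genes (vertical axis, R320* minus WT) against the median of its nearest tested neighbours, up to 25 on each side (horizontal axis), red where the gene was called and grey where not, with triangles for chromosome 12 and a dashed line where both are equal. CD63 and TSPAN31 stand at the left, with neighbour medians of -0.71 and -0.74, while TSPAN32 is at -6.36 with a neighbour median of 0.19.

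At closer range, the nearest tested genes on one side of TSPAN32, C11orf21 and ASCL2, were also low in R320*. C11orf21, whose span overlaps TSPAN32, averaged 1.92 normalized counts in R320* and 725 in WT (log2 fold change -8.22), so how reads divide between the pair is uncertain. It passed the filter through the WT libraries alone, so it had to differ, and at so few reads the fitted change depends on the added constant. ASCL2, a transcription factor gene whose span begins at -33.5 kb from that of TSPAN32, averaged 16.9 in R320* and 361 in WT (log2 fold change -4.44, limma adjusted p = 1.64e-09). On the other side CD81, 74.2 kb away, rose as given above and TSSC4, 98.7 kb away, was not called (687 in R320* and 754 in WT, limma adjusted p = 0.210). Farther out on the side of ASCL2, MRPL23, at -354.7 kb, rose (log2 fold change 0.47, limma adjusted p = 0.0242) and H19, at -306.8 kb, was not called (limma adjusted p = 0.104).

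Some other tetraspanin genes with overlapping spans were also set beside the genes that overlap them. CDK4, which overlaps TSPAN31, averaged 4579 in R320* and 5447 in WT (log2 fold change -0.25, limma adjusted p = 2.65e-05), a much smaller change than that of TSPAN31. TP53I11, which overlaps TSPAN18, averaged 38.8 in R320* and 38.4 in WT and was not called (limma adjusted p = 0.946). LRIF1, which overlaps CD53, averaged 2203 in R320* and 2865 in WT (log2 fold change -0.38, limma adjusted p = 1.12e-05). CD53 itself averaged far less, 33.2 in R320* and 33.5 in WT. No source used here gives whether strand was used in counting, so reads in overlapping spans are uncertain.

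Within 500 kb of TSPAN31 24 of 27 other tested genes were lower and 0 higher (median log2 fold change -0.78), and the same counts held within 500 kb of CD63 (median -0.72). Within 500 kb of TSPAN13 there were 3 tested genes, of which SOSTDC1, a BMP antagonist gene, fell (17.8 in R320* and 202 in WT, limma adjusted p = 1.87e-07), ANKMY2 fell (log2 fold change -0.32) and BZW2 rose (0.23).

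**Figure D5:**
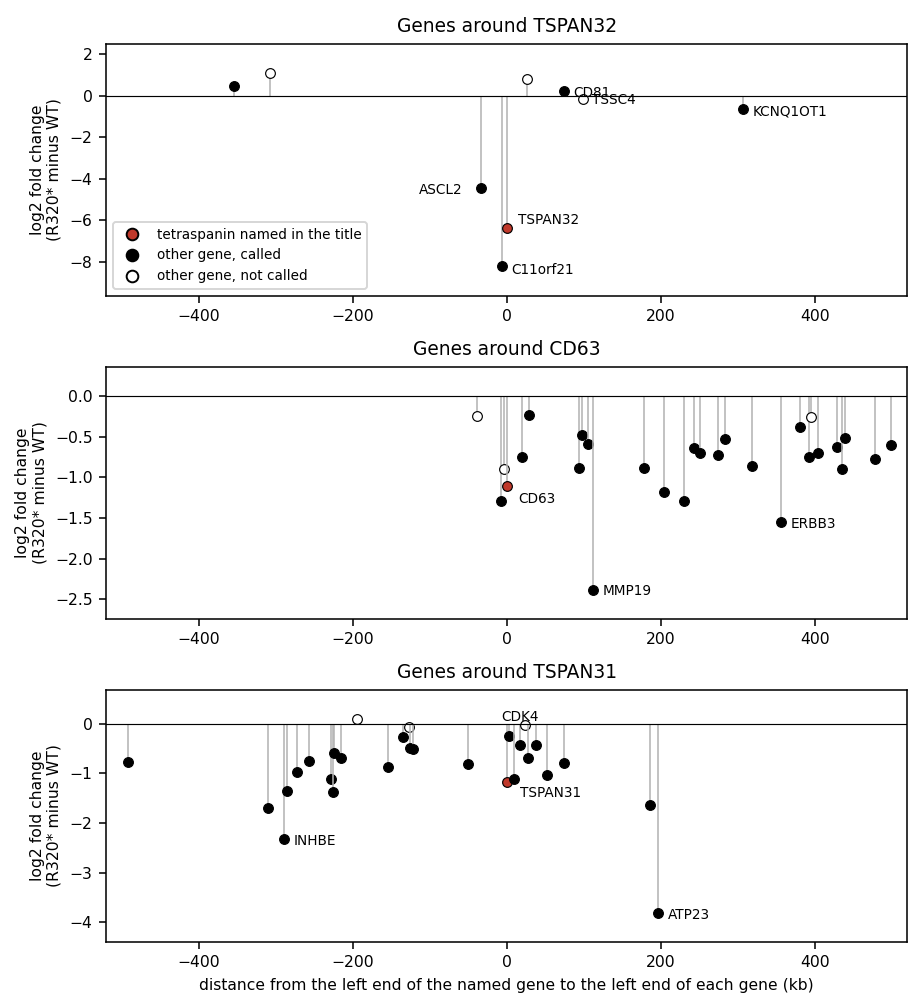
Log2 fold change (R320* minus WT) of tested genes within 500 kb of TSPAN32, CD63 and TSPAN31, against the distance in kb between the left ends of the gene spans, with the named tetraspanin gene in red, other called genes filled black and genes not called open. Around TSPAN32 the low points are TSPAN32, C11orf21 (-8.22) and ASCL2 (-4.44), while around CD63 and TSPAN31 nearly all genes lie below 0.

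Genes of known tetraspanin partners and of their pathways moved in both directions. Of 27 such genes 21 were tested, 4 higher and 8 lower in R320* (57.1% called, against 53.7% of all genes), with a median log2 fold change of -0.04. The immunoglobulin-type partners of CD9 and CD81 differed little: PTGFRN fell to 1202 ± 51.3 normalized counts in R320*, against 1443 ± 121 in WT (log2 fold change -0.26, limma adjusted p = 0.00323), and IGSF8 had 1162 ± 164 in R320* and 1071 ± 29.6 in WT (95% interval -0.06 to 0.28, limma adjusted p = 0.278). IFITM1, a small interferon-induced membrane protein that associates with CD81, fell to 3187 ± 85.6, against 5634 ± 75.2 in WT (log2 fold change -0.82). CD36, a scavenger receptor found with CD9 in platelets, rose to 775 ± 27.7, against 138 ± 29.5 in WT (log2 fold change 2.51, SE 0.13, limma adjusted p = 1.40e-10). EPCAM, an adhesion protein that binds CD9 and TSPAN8 in carcinoma cells, had 5149.7 ± 146 in R320* and 2326 ± 29.3 in WT and rose (log2 fold change 1.15, limma adjusted p = 1.05e-12).

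The integrin partners of CD151 did not move as one. The shared chain ITGB1 had 7137 ± 301 in R320* and 6919 ± 199.7 in WT (95% interval -0.04 to 0.13, limma adjusted p = 0.374). ITGA3, counted among the lower genes, had 3.88 ± 1.88 in R320* and 53.5 ± 8.10 in WT (log2 fold change -3.55, and -2.73 with 5 normalized counts added). It passed the filter through the WT libraries alone, so it had to differ, and it was not tested once a WT library was left out. ITGB4 fell to 139 ± 18.3, against 277 ± 53.1 in WT (log2 fold change -0.98). ITGA6 was not called (95% interval -0.25 to 1.12).

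Among ADAM10 substrates NOTCH1 fell and NOTCH2 rose. NOTCH1 had 637 ± 9.93 normalized counts in R320* and 1751 ± 109 in WT (log2 fold change -1.46, limma adjusted p = 1.44e-11), and NOTCH2 had 4789 ± 187 in R320* and 2056 ± 105 in WT (log2 fold change 1.22, limma adjusted p = 3.31e-12). LRP5, of the norrin receptor complex, rose to 5518 ± 259, against 3911 ± 83.7 in WT (log2 fold change 0.50), while FZD4 was not called (95% interval -0.08 to 0.12). ORAI1, the channel regulated by TSPAN18, fell to 569.7 ± 31.4, against 667 ± 3.77 in WT (log2 fold change -0.23, limma adjusted p = 0.0212), a call lost without R320* replicate 2 (0.0896), without WT replicate 3 (0.0541) and under quantile normalization (0.0849).

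Of the vesicle-forming genes 1 of 3 was called. TSG101, an ESCRT subunit, fell to 1419.7 ± 115, against 1785 ± 88.6 in WT (log2 fold change -0.33, limma adjusted p = 0.000349). SDCBP (syntenin), which binds CD63, and PDCD6IP (ALIX) had 95% intervals of -0.11 to 0.07 and -0.12 to 0.05. ZDHHC2, which attaches palmitate to CD9 and CD151, fell to 90.7 ± 5.16, against 142 ± 10.1 in WT (log2 fold change -0.64, limma adjusted p = 0.00556).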

How the data were processed

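RNA-seq libraries of K562 cells with RUNX1 R320* (n = 3) and WT RUNX1 (n = 3) were used. The submitters' processing notes name hg38 and the tools Salmon, DESeq2, featureCounts and HISAT2, without saying which made each table. The deposited normalized counts are a signal per Entrez gene scaled by the authors with a single factor for each library, since all values are whole multiples of the smallest in their library (100% within 1e-06), with 0.953 to 1.05 per read. The deposited RPKM values, named so by the authors in the table's title, are per Ensembl gene, and whether they are instead TPM with some genes removed cannot be told apart. An RPKM of 0 can be a failed estimate.

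Both tables were fitted whole with limma 3.58.1 in R 4.3.3 (empirical Bayes, intensity trend): log2(normalized count + 1) of the 14299 genes that reached 10 in 3 or more libraries, and log2(RPKM + 0.1) of the 17769 that reached 0.5 in 3 or more. P-values were adjusted by Benjamini-Hochberg over each table. Adding a constant shrinks the fold changes of low genes. Symbols and positions are from RefSeq GRCh38.p14, and all 33 genes matched. The fit was also run on simulated data with a far smaller share of changed genes than was called here. That run is no check of these results, and its outcome is not reported here. Tables and figures were made in Python 3.11.15 with pandas 2.3.3 and matplotlib 3.10.9. Values in every library were given for tetraspanin genes called with a mean of at least 50 normalized counts in the higher genotype and for CD9, CD63, CD81, CD151, CD82, CD37, CD53, TSPAN32 and TSPAN33, and values of single libraries of ROM1, TSPAN14, TSPAN17 and UPK1B were added after they were seen. Partner genes were named where called, with ADAM10, IGSF8, PTGFRN and ITGB1 named in any case, and ITGA6, FZD4, SDCBP and PDCD6IP were added. The members and lists were chosen with earlier results of these data known. Alternatives were other added constants, filters and scalings, no trend, a replicate block and each library left out. Raw reads, isoforms and count-based tests were not used here, and some marker and partner results are not reported here.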

Additional observations from a re-analysis of the deposited data

How the results depend on the processing

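In the normalized counts, 10 to 12 tetraspanin genes were called under the alternatives to the 11 given above, among them other added constants, filters, quantile and upper-quartile scaling (the last chosen after seeing the data) and no intensity trend, and 11 to 12 with each library left out. In RPKM 8 to 10 were called under other settings and 6 to 10 with each library left out, against 9. The number higher in RPKM was between 3 and 5 with each library left out, with 3 without R320* replicate 3 and without WT replicate 1, and the filter then lost TSPAN32 wherever a WT library was dropped, since only WT libraries pass it. Of 602 alternative values of named genes 574 kept their direction and their side of the threshold, 13 lost a call, 8 gained one and 7 changed sign. Those that changed sign were small and never called: CD53 (-0.01) became 0.05 under quantile normalization, 0.01 under upper-quartile scaling, 0.01 without R320* replicate 1, 0.01 without R320* replicate 3, 0.09 without WT replicate 2 and 0.02 without WT replicate 3, and IGSF8 (0.11) became -0.00 without R320* replicate 3. With each library left out CD53 ranged from -0.12 to 0.09 and IGSF8 from -0.00 to 0.19. The cause was not tested.

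Replicate numbers are shared between the genotypes. Deviations from the genotype means had correlations of 0.032, -0.003 and -0.003 for same-numbered libraries and -0.036 to 0.038 for the other pairs. The labels do not say whether same-numbered libraries were handled together, and correlations among so few libraries cannot show it. With the replicate block 11 genes were called in counts, 5 higher and 6 lower, and 9 in RPKM. TMM scaling, edgeR and DESeq2 were planned and not run, although the deposited values are whole multiples of 1 factor per library. Depth limits statements on genes under about 50 normalized counts.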

Other observations

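Antisense genes named after tetraspanin genes were low in both genotypes. CD81-AS1 had 0.362, 0.459 and 0.545 RPKM in R320* and 0.177, 0.375 and 0.465 in WT, and its span overlaps CD81. UPK1A-AS1 was listed at 0 in every R320* library and at 0.0912 RPKM in 1 WT library. The CD81-AS1 libraries of the genotypes overlapped, and in the normalized counts it averaged 18.5 in R320* and 10.8 in WT (log2 fold change 0.80, limma adjusted p = 0.166).

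Further genes around TSPAN32 were measured in the same fit. KCNQ1OT1, a non-coding RNA whose span begins 306.3 kb away, fell to 1192 normalized counts in R320*, against 1865 in WT (log2 fold change -0.65, limma adjusted p = 4.27e-08). H19, on the other side at -306.8 kb, averaged 843 in R320* and 475 in WT and was not called (limma adjusted p = 0.104).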
